A study of Mus musculus with 13 samples.

Results

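This account concerns 406 places in the mouse genome where a peak of the cohesin subunit STAG2 was called and no peak of its paralogue STAG1 was called in any library. They come from a chromatin immunoprecipitation and sequencing (ChIP-seq) study of NU1 cells, urothelial cells of wild-type genotype from the mouse that became immortal spontaneously during passaging. Libraries were made with antibodies to STAG2, STAG1 and CTCF, each from quiescent and from proliferating cells with 2 libraries per group, which gives 6 groups and 12 peak lists. Quiescent cells had reached confluence and were then kept in medium with 0.5 uM erlotinib, an inhibitor of the EGF receptor kinase, and 1 uM rosiglitazone, an agonist of PPAR gamma. Proliferating cells had neither agent, and every precipitation used 25 ug of antibody on 550 ug of chromatin. All libraries come from 1 cell line. The labels call the replicates biological without saying what separates them, so a spread over 2 libraries covers whatever differed between those preparations. A further library has input in its title and IgG as its antibody label. It was not analysed here, and which control the fold enrichments below refer to is not known. Peak lists give no expression values, and the cell type could not be checked from them.

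The sites were chosen by the peak lists themselves. Peaks of all 12 lists on chromosomes 1 to 19 were joined into 112325 sites wherever they shared at least 1 bp. A site was kept when it held a STAG2 peak in both quiescent libraries and in at least 1 proliferating library, and no peak in any of the 4 STAG1 lists. The STAG2 part of the rule alone gave 28122 sites, of which 406 (1.44%) had no STAG1 peak. STAG1 was called in all 4 lists at 21892 of these STAG2 sites, in 3 lists at 2865, in 2 lists at 1805 and in 1 list at 1154. The mirrored rule, with STAG1 in both quiescent libraries and in at least 1 proliferating library and STAG2 in no list, gave 561 sites. The STAG2 and STAG1 values below therefore describe the choice and are not tested. CTCF peaks took part in joining peaks into sites, but a CTCF peak was neither asked for nor refused, and leaving out any single CTCF list gave 406 or 407 sites. Positions relative to genes and sequences were not used by the rule. A site without a STAG1 peak is one where no STAG1 signal passed the authors' caller, which is not a measurement of zero. The lists held between 34281 and 71757 peaks and no read totals, so the depth is unknown.

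Cohesin is a ring-shaped protein complex that holds sister chromatids together and extrudes loops of chromatin. Each ring carries either STAG1 or STAG2, and the zinc finger protein CTCF, which binds a GC-rich motif, halts the moving ring and places many of its peaks. In the literature, cohesin with STAG1 is most often described at CTCF sites that are shared between cell types, while cohesin with STAG2 is also found at enhancers and promoters that CTCF does not bind. STAG2 is a tumour suppressor that is often mutated in bladder cancer, which arises from the urothelium.

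Several of these sites lie on promoters, and their sequences are shown because they carry the strongest STAG2 signal or a repeated motif. Each promoter covers 250 bases before to 50 bases after the start, is read 5′ to 3′ on the strand of its gene, and comes from RefSeq for GRCm38.p6, the same build as the files' mm10. Capitals mark every match, on either strand, to CCCTC (the core of the CTCF motif), the longer CTCF consensus, GGGCGG (SP and KLF factors), CCAAT (NF-Y), TTTNNCGC (E2F), TTTGAA (the CHR element), the NRF1 consensus, ACTACAA (ZNF143), TGANTCA (AP-1), CACGTG (E-box), CCGGAAG (ETS factors), TGACGTC (CREB and ATF) and ATGGCGG (YY1). Matches can overlap, as CCCTC and the reverse of GGGCGG do in the Pisd promoter. Pisd had the highest-ranked STAG2 signal of all 406 sites, and Zbtb22 the highest at a gene end.
Pisd promoter, chr5:32746293-32746592, minus strand: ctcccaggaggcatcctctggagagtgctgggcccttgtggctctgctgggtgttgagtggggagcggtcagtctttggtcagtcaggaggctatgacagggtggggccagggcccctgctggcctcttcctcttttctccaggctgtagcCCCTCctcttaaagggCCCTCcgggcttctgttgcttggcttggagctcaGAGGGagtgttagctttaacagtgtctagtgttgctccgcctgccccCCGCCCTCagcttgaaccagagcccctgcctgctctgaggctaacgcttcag
Zbtb22 promoter, chr17:33915926-33916225, plus strand: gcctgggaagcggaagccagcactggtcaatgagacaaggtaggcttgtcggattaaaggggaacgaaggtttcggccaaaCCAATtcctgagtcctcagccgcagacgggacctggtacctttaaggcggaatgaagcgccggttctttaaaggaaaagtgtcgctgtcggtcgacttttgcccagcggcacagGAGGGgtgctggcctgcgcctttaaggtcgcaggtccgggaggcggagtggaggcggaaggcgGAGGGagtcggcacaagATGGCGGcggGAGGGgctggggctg
The Tspan31 promoter repeats the CCAAT box.
Tspan31 promoter, chr10:127070212-127070511, minus strand: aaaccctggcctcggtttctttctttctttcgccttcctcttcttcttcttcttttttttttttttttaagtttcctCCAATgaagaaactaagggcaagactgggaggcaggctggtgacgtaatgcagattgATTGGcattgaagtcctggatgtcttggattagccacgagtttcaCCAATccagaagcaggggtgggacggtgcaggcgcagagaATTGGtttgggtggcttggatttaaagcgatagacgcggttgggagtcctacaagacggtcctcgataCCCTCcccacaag
Gpr37 is shown as a promoter where CTCF was called in all 4 CTCF lists, and Mcm10 as the only gene of the cell cycle lists below with such a site.
Gpr37 promoter, chr6:25689931-25690230, minus strand: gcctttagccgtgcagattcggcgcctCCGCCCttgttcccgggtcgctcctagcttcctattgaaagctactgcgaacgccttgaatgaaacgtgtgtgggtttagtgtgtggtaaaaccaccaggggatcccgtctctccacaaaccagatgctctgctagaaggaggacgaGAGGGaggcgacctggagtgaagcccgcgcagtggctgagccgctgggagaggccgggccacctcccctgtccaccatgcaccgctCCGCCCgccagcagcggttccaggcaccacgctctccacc
Mcm10 promoter, chr2:5012742-5013041, minus strand: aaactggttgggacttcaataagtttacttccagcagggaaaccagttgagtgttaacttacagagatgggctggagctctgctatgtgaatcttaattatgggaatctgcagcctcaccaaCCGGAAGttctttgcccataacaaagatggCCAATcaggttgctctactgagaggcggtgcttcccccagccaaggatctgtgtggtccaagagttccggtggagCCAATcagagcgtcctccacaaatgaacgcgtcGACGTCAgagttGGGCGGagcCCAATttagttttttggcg

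CTCF was missing from most of the STAG2 sites without STAG1. A CTCF peak was present at 66 of the 406 sites (16.3%) in the first quiescent CTCF library and at 82 (20.2%) in the second. In the proliferating libraries it was present at 84 (20.7%) and 97 (23.9%). Among all sites with STAG2 by the same rule, the shares in those 4 libraries were 78.3%, 82.4%, 84.6% and 83.2%. At the sites with STAG1 in all 4 lists they were 88.2% and 91.8% in the quiescent libraries and 93.3% and 91.5% in the proliferating libraries. The highest of the 4 shares without STAG1 was therefore far below the lowest with it.

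Over the 4 CTCF libraries the share was 20.3% ± 3.13 (SD, n = 4) at STAG2 sites without STAG1 and 91.2% ± 2.13 at STAG2 sites with STAG1. The difference was -70.9 percentage points (SD 2.25, range -72.6 to -67.6), with the share lower at sites without STAG1 in 4 of 4 libraries. An exact two-sided sign-flip test over the 4 libraries gave p = 0.13, the smallest value that 16 arrangements allow, and 0.19 after Benjamini-Hochberg adjustment over 3 tests, so this exact test could not pass the usual threshold for significance at any size of difference. Sites, not being replicates, were not used as such.

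The share of sites with CTCF followed the number of STAG1 lists step by step. It averaged 20.3% with no STAG1 list, 35.7% with 1 list, 47.8% with 2, 62.0% with 3 and 91.2% with all 4. Each library on its own gave the same order. The sites without STAG1 thus stood at the low end of a series, not apart from it.

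**Figure D1:**
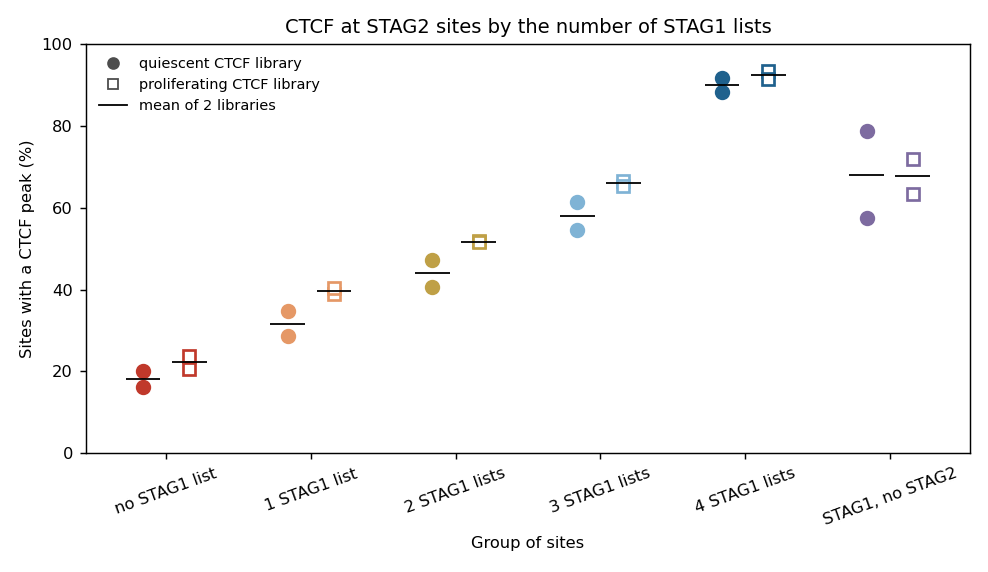
Share of sites with a CTCF peak (%, vertical axis) in each CTCF library, by group of sites. Filled circles are quiescent libraries, open squares proliferating libraries and bars the mean of 2 libraries; the sites with no STAG1 list lie between 16.3% and 23.9%, below every other group.

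STAG1 sites without STAG2 are the mirror image by rule, and they were not poor in CTCF to the same degree. CTCF was called at 57.4% and 78.8% of them in the quiescent libraries and at 72.0% and 63.3% in the proliferating libraries. The share at STAG2 sites without STAG1 was lower in 4 of 4 libraries, with a mean difference of -47.6 points (SD 9.02, range -58.6 to -39.4; exact sign-flip test, p = 0.13, adjusted 0.19). The 2 quiescent libraries lay far apart on the STAG1 sites, and this difference spread more widely over libraries than the one before.

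Counted over all 4 CTCF lists, 271 of the 406 sites (66.7%) had no CTCF peak in any, and 43 (10.6%) had one in all 4. Among all STAG2 sites by the rule these shares were 9.42% and 72.4%. At STAG1 sites without STAG2 they were 12.5% (70 sites) and 44.0% (247 sites). The remaining STAG2 sites without STAG1 had CTCF in 1 list (46 sites), 2 lists (27) or 3 lists (19). Absence was thus the common state, and where CTCF was called it was more often in some lists than in all 4.

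Where CTCF was present, its peaks were weaker than at the sites with STAG1 in all 4 lists, and much like those at sites with STAG1 in 1 list. The median fold enrichment of CTCF at STAG2 sites without STAG1 was 5.99 and 6.99 in the quiescent libraries and 6.19 and 6.33 in the proliferating libraries. At sites with STAG1 in all 4 lists it was 15.97 and 20.4 in the quiescent libraries and 19.8 and 16.8 in the proliferating libraries. At sites with STAG1 in 1 list it was 5.83 and 6.49 in the quiescent libraries and 5.99 and 6.001 in the proliferating libraries. Fold enrichment is the authors' value per peak over a control that the sources used here do not settle. Ranked within its own list, where 100 is the strongest peak, the median CTCF peak lay between the percentiles 32.1 and 36.5 at sites without STAG1, between 29.8 and 34.5 at sites with STAG1 in 1 list and between 77.1 and 81.0 at sites with it in all 4.

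Between quiescent and proliferating cells the CTCF share at STAG2 sites without STAG1 differed by a few points. The share averaged 18.2% ± 2.79 in quiescent libraries and 22.3% ± 2.26 in proliferating libraries (SD, n = 2 each), a difference of -4.06 points. Permuting the state over the 4 libraries (exact, two-sided) gave p = 0.33, which is the smallest value that 6 arrangements allow. The same difference was -2.42 points at the STAG2 sites with STAG1 in all 4 lists and 0.446 points at STAG1 sites without STAG2. The gap was wider at sites with STAG1 in 1 list, with 31.7% in quiescent and 39.7% in proliferating libraries. It was also wider at sites with STAG1 in 1 to 3 lists, with 48.4% and 56.4%. At the sites without STAG1 the 2 states did not overlap, but their nearest libraries, at 20.2% in quiescent and 20.7% in proliferating cells, were closer to each other than to their own replicates.

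STAG2 itself was low at most of these sites. Its median fold enrichment at sites without STAG1 was 5.99 and 6.49 in the quiescent libraries, and 6.02 and 5.49 in the proliferating libraries at the 346 and 286 sites that had a peak there. At sites with STAG1 in all 4 lists the medians were 15.5 and 13.5 in the quiescent libraries and 14.7 and 12.0 in the proliferating libraries. The rule asked for STAG2 in both quiescent libraries and in only 1 proliferating library, so the smaller number of proliferating peaks follows from it. STAG2 was called in both proliferating libraries at 226 sites (55.7%), in the first alone at 120 and in the second alone at 60.

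Sites were ranked by the mean STAG2 percentile, which is the rank of the fold within its list averaged over the 4 STAG2 libraries, with a library without a peak counted as 0. Its median was 23.0 at the 406 sites, with a range of 2.34 to 92.5, against 69.9 at sites with STAG1 in all 4 lists. When all 28122 STAG2 sites were cut into 10 equal classes by this rank, class 1, the lowest, held 232 of the sites without STAG1, class 2 held 104 and class 3 held 38. The lower 5 classes together held 388 of 406 (95.6%). Sites without STAG1 made up 8.25% of class 1 and 0.0355% of class 10.

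The CTCF lists took no part in the ranking, so CTCF could be compared at like STAG2 rank. In class 1, CTCF was called on average over the 4 libraries at 20.3% of the sites without STAG1 and at 74.2% of those with STAG1 in all 4 lists. In class 2 the shares were 25.7% and 76.9%. Each class above class 4 held at most 7 sites without STAG1. Among the 26 sites without STAG1 whose mean percentile was at least 50, a limit chosen after the values were seen, 23 (88.5%) had CTCF in no library. Over all 406 sites this share was 66.7%. The same count for other STAG2 sites of that rank is not given here. Over 5 equal classes of the rank, the mean CTCF share of sites without STAG1 minus that of sites with it in all 4 lists was -77.5 points. Each class counted alike in this mean, although from the lowest up they held 336, 47, 12, 7 and 4 sites without STAG1. In the lowest, which held most of the sites, the shares were 21.9% without STAG1 and 75.9% with it in all 4 lists. What part the low STAG2 signal had in the missing STAG1 peaks was not tested.

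**Figure D2:**
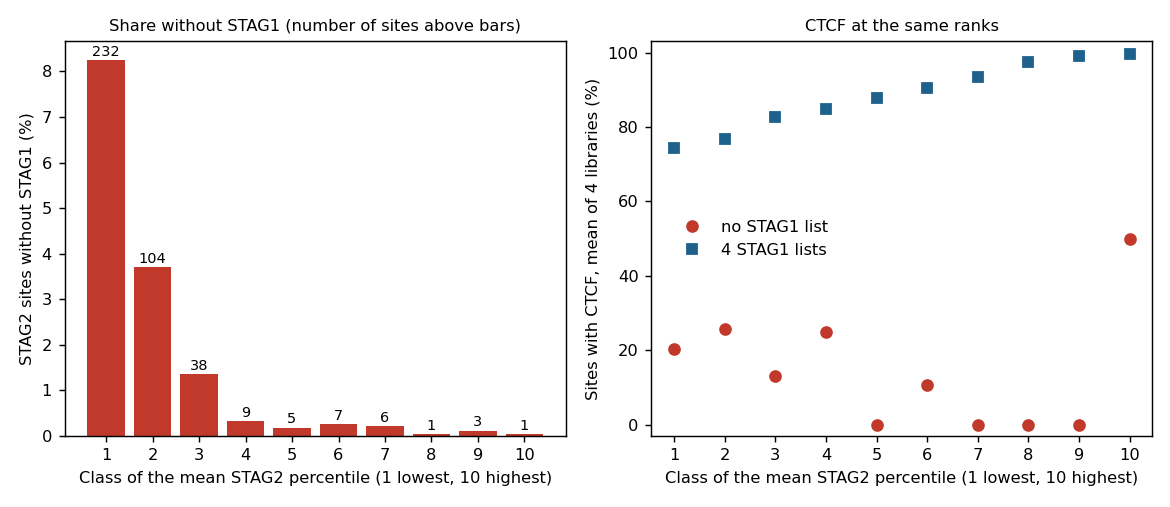
Left, share of STAG2 sites without STAG1 (%, bars, with their number above) in each of 10 equal classes of the mean STAG2 percentile, 1 being the lowest. Right, mean share of sites with CTCF over 4 libraries (%) in the same classes for sites with no STAG1 list (circles) and with 4 STAG1 lists (squares); in class 1 these are 20.3% and 74.2%, and circles above class 4 rest on 1 to 7 sites each.

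Sites with STAG1 in exactly 1 list lay just outside the rule and were close in STAG2 signal. Their median STAG2 fold was 6.43 and 6.48 in the quiescent libraries and 6.34 and 5.75 in the proliferating libraries. Of these 1154 sites, 836 (72.4%) had their only STAG1 peak in the second proliferating STAG1 library, whose list of 50468 peaks was the longest of the 4. The other STAG1 libraries supplied 81, 106 and 131. The lone STAG1 peaks were weak, with median folds between 5.19 and 5.49. Without the second proliferating STAG1 library 1246 sites met the rule in place of 406. Without the first or the second quiescent STAG2 library it was 862 or 1313 sites, so these 3 libraries set much of the number. Leaving out any of these 3 lists loosens the rule, so a rise in number follows from its form. The CTCF difference between STAG2 sites without and with STAG1 kept its sign without any single library, between -74.1 and -58.7 points.

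STAG2 and CTCF summits lay farther apart at sites without STAG1 than at sites with STAG1 in all 4 lists. The distance from the STAG2 summit to the CTCF summit, over the 8 pairs of libraries of the same state, had medians of 59 to 99 bp at STAG2 sites without STAG1. The medians were 64 to 86 bp at sites with STAG1 in 1 to 3 lists and 33 to 38 bp at sites with STAG1 in all 4. CTCF summits within 50 bp made up 33.3% to 47.0% of the pairs at sites without STAG1 and 59.1% to 64.0% at sites with it in all 4. The STAG2 summits of replicates lay 39 and 47.5 bp apart at sites without STAG1, 53 and 57.5 bp apart at sites with STAG1 in 1 to 3 lists and 28 and 30 bp apart at sites with it in all 4. The replicate distances without STAG1 thus lay between those of the other groups. What part the spread of replicate summits had in the distance to CTCF was not tested.

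**Figure D3:**
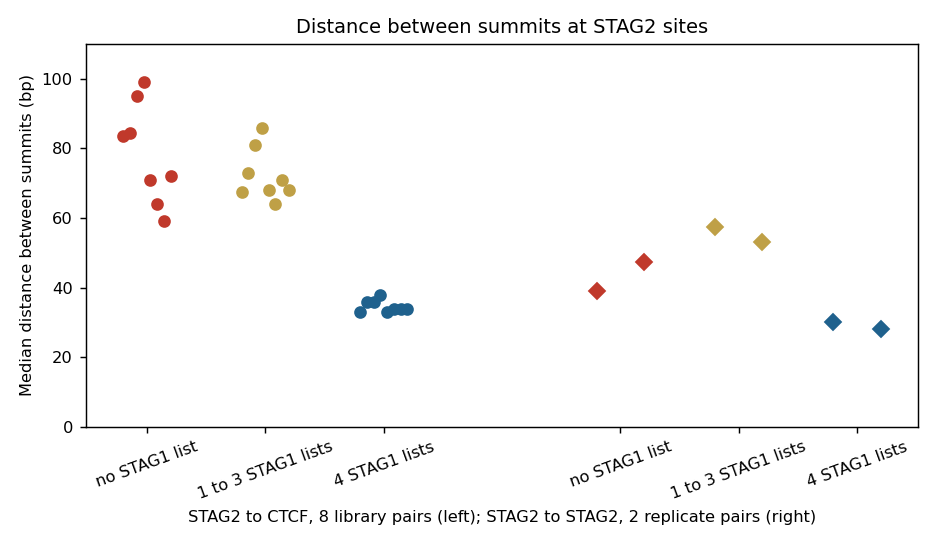
Median distance between summits (bp, vertical axis) by group of sites. Circles are the 8 STAG2 and CTCF library pairs of the same state and diamonds the 2 STAG2 replicate pairs; STAG2 to CTCF distances are 59 to 99 bp with no STAG1 list and 33 to 38 bp with 4.

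By the rule no STAG1 peak touched the sites. Most had one within 10000 bp, which is given without a comparison group. The nearest STAG1 peak of any library lay at a median of 4342.5 bp, with a middle range of 1291 to 12266 bp and extremes of 15 and 271937 bp. It was within 1000 bp at 90 sites (22.2%) and within 10000 bp at 287 (70.7%). The nearest CTCF peak lay at a median of 1343 bp, counting the 135 sites with a CTCF peak of their own as 0. The sites without STAG1 were also narrower, with a median width of 582.5 bp against 996 bp at sites with STAG1 in all 4 lists. The median was 717.5 bp at sites with STAG1 in 1 list, 600 bp at STAG1 sites without STAG2 and 550 bp over all sites. Joining peaks of more lists can only widen a site.

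The sites were spread over all 19 autosomes. Their share of the STAG2 sites was lowest on chromosome 14 (0.995%, 10 sites) and highest on chromosome 13 (1.92%, 20 sites). Chromosomes 11 and 2 had the largest numbers, with 47 and 45 sites. Of the 387 gaps between neighbouring sites, 24 were under 100000 bp. Whether this differs from a random placing of as many sites was not tested.

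In the full lists a smaller share of the STAG2 sites without STAG1 than of the other STAG2 sites lay at gene ends, a count given without a test. A site was put at a gene end when it overlapped a window of 1000 bp on either side of the start or the end of a protein-coding gene, since the gene table used gives no strand. This was so for 93 of the 406 sites (22.9%, 95% Wilson interval 19.1% to 27.2%, counting error only). The share was 41.1% at sites with STAG1 in all 4 lists, 40.5% over all STAG2 sites by the rule and 16.6% over all 112325 sites. STAG1 sites without STAG2 were rarely there, with 24 of 561 (4.28%).

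The choice of window and lists moved this comparison. With all peaks cut to 100 bp on each side of their summits, which gives every peak the same width, 33.9% of the 598 sites without STAG1 and 35.7% of the sites with STAG1 in all 4 lists were at gene ends. With every list cut to its 20000 strongest peaks, the order turned round. The shares were 59.0% of 630 sites without STAG1 and 37.8% of sites with it in all 4 lists. The STAG1 lists were cut too, so these 630 sites can have a weaker STAG1 peak in the full lists. With the STAG2 lists alone cut so, 22 sites met the rule. Of these, 36.4% were at gene ends, against 44.1% of sites with STAG1 in all 4 lists. By summit alone, on the chromosomes for which annotated starts were used here, 59 of 395 sites without STAG1 (14.9%) and 31.8% of sites with STAG1 in all 4 lists lay within 1000 bp of a start. Starts were at hand for 16457 of 20665 protein-coding genes, so these shares can be too low.

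Gene bodies held 227 of the 406 sites (55.9%), against 69.9% of sites with STAG1 in all 4 lists and 70.0% of all STAG2 sites by the rule. The share was 60.6% over all 112325 sites and 47.2% at STAG1 sites without STAG2. Outside genes and their ends were 163 sites (40.1%), against 28.0% of sites with STAG1 in all 4 lists. Over all 112325 sites this share was 37.0%, near that of the sites without STAG1, and at STAG1 sites without STAG2 it was 50.6%. At the sites without STAG1, CTCF was scarce both at gene ends and elsewhere. No CTCF peak was called at 50 of the 93 sites at gene ends (53.8%) and at 221 of the 313 sites elsewhere (70.6%). CTCF was in all 4 lists at 14 and 29 of these sites.

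**Figure D4:**
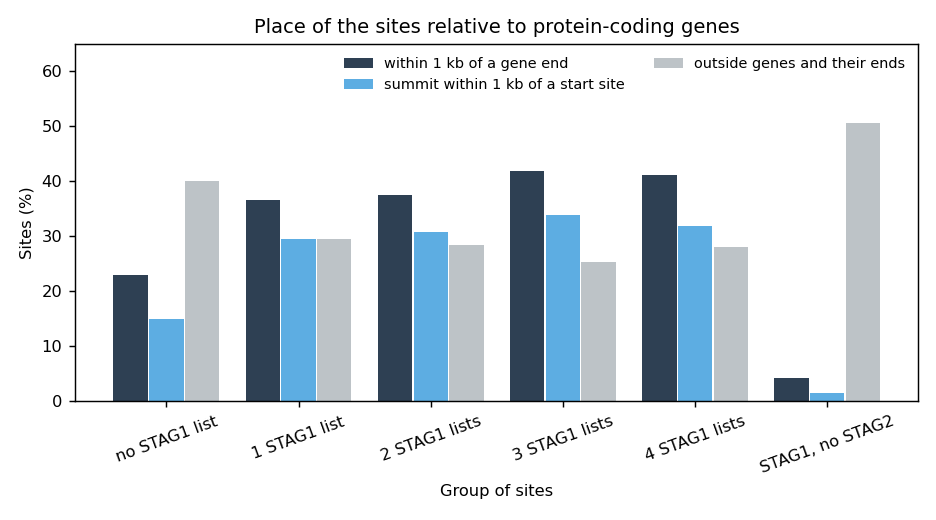
Share of sites (%, bars) within 1000 bp of an end of a protein-coding gene, with a summit within 1000 bp of an annotated start, and outside genes and their ends, by group of sites. For sites with no STAG1 list these are 22.9%, 14.9% and 40.1%, and for sites with 4 STAG1 lists 41.1%, 31.8% and 28.0%.

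At gene ends the highest-ranked site without STAG1 was at chr17:33915706-33916457, over the start of Zbtb22, which encodes a BTB domain zinc finger protein, and within 1000 bp of an end of Daxx, which encodes a chaperone of histone H3.3 found in PML bodies. Its STAG2 fold enrichment was 30.3 and 28.8 in the quiescent libraries and 24.0 and 26.01 in the proliferating libraries. Neither STAG1 nor CTCF had a peak there in any library. The second was at chr10:81168628-81169729, 908 bp outside Pias4, which encodes a SUMO E3 ligase. STAG2 fold enrichment there was 21.3 and 25.2 in the quiescent libraries and 22.0 in both proliferating libraries. CTCF was called in no library at this site either.

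Other highly ranked sites at gene ends carried genes of unlike roles. At Inpp5j (chr11:3504522-3505229), whose product removes a phosphate from inositol lipids, the STAG2 fold was 22.0 and 20.3 in quiescent libraries and 22.7 and 19.3 in proliferating libraries. At Tspan31 (chr10:127069910-127070538), a tetraspanin gene, it was 21.0 and 14.3 in quiescent libraries and 17.7 and 21.0 in proliferating libraries. Neither site had a CTCF peak. Folds of different libraries stand side by side as a description, and no difference between states is drawn from them.

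Further down the same order, the site at Ikbke, the gene of a kinase of innate immune signalling, had STAG2 folds of 9.92 and 12.1 in quiescent libraries and 12.9 and 19.4 in proliferating libraries. It had no CTCF peak. The sites at Itpripl1, at Tmem79 (a membrane protein of the skin barrier), at Hsd17b2 (which oxidises estradiol) and at Gm36298 had folds between 5.29 and 10.8, again with no CTCF peak. The site at Nr1h2, the gene of the liver X receptor beta, and that at Lrrk2, a kinase gene mutated in familial Parkinson disease, had CTCF in 2 libraries each, with CTCF folds of 3.60 to 4.60.

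Among sites at gene ends with CTCF in all 4 lists, the highest-ranked was at Gpr37 (chr6:25689492-25690482), which encodes an orphan G protein-coupled receptor. Its mean STAG2 percentile was 48.7, below that of the site at Itpripl1 (52.2) and above that at Tmem79 (44.5). STAG2 fold there was 13.0 and 9.48 in quiescent libraries and 5.49 and 7.98 in proliferating libraries, and CTCF fold was 3.99 and 7.98 in quiescent libraries and 8.48 and 7.98 in proliferating libraries. At Pfas (chr11:69008158-69009081), the gene of a purine synthesis enzyme, STAG2 folds were 6.67 to 8.33 and CTCF folds 9.75 to 13.5 over the 4 libraries each. Next came Wbp11 (a splicing protein gene), Ccn3 (a matrix protein gene) and Mon1a (a gene of endosome traffic), with CTCF folds from 2.75 at Mon1a to 15.5 at Wbp11.

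Away from gene ends, the highest-ranked of all 406 sites lay within Pisd, which encodes the mitochondrial enzyme that makes phosphatidylethanolamine from phosphatidylserine, at chr5:32746094-32746739. Its summit was 77 bp from an annotated internal start of Pisd, whose promoter is shown above. STAG2 fold was 27.6 and 42.7 in quiescent libraries and 22.4 and 36.7 in proliferating libraries. CTCF was called in 1 quiescent library at a fold of 5.49 and in 1 proliferating library at 5.99.

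Other sites of this kind lay far from protein-coding genes or inside one. The site nearest to Rgs2, which encodes a regulator of G protein signalling and lay 57403 bp away, had STAG2 folds of 12.0 to 15.97 over the 4 libraries. The site nearest to Gng4, a G protein subunit gene 34933 bp away, had STAG2 folds of 13.0 and 23.5 in quiescent libraries and 12.5 and 10.5 in proliferating libraries. The site in 4930503B20Rik had folds of 11.0 to 15.95. CTCF was called in no library at these 3 sites.

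**Figure D5:**
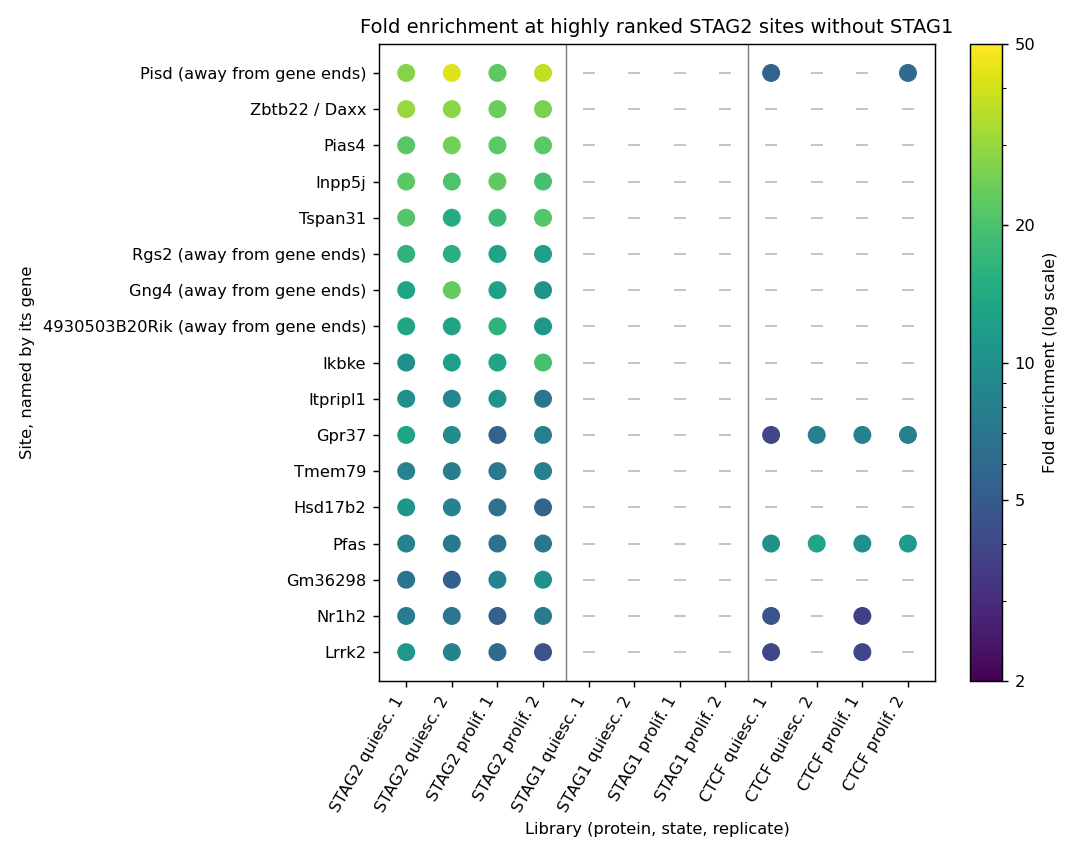
STAG2, STAG1 and CTCF fold enrichment (colour, log scale) in each of the 12 libraries at 17 highly ranked sites, ordered by rank from the top; a dash means no peak. STAG2 folds span 4.49 to 42.7, all STAG1 columns are empty by the rule, and CTCF is present in all 4 libraries at Gpr37 and Pfas alone.

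Strong STAG2 sites at gene ends just outside the rule existed too. The 3 highest with STAG1 in a single list were at Gcdh, an enzyme gene of lysine breakdown, at Szrd1 and at Dmac2, a gene of respiratory complex I assembly. STAG2 folds were 43.1 to 52.6 at Gcdh, 32.6 to 44.2 at Szrd1 and 34.9 to 37.4 at Dmac2. Each had its only STAG1 peak in the second proliferating STAG1 library, with folds of 4.00, 5.66 and 5.99. At each of them a single STAG1 peak of that size kept the site from meeting the rule.

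The study set STAG2 beside DREAM, a repressor complex of cell cycle genes in quiescent cells, so genes of this and other programmes were counted at the gene ends of the sites. Over all 20665 protein-coding genes, 105 (0.508%) had a STAG2 site without STAG1 at an end and 56.5% had any STAG2 site by the rule. Of 370 genes on 15 lists, 3 had a site without STAG1, and 13 lists had none. Among G1/S genes bound by DREAM it was 1 of 59, Mcm10, which encodes a replication initiation factor. Among G2/M genes it was 0 of 48, and among subunits of DREAM and MuvB 0 of 13. The STAG2 rule without regard to STAG1 covered 89.8% of the G1/S genes, 79.2% of the G2/M genes and 92.3% of the subunit genes.

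The site at Mcm10 (chr2:5012250-5012897) was a weak one. Its STAG2 fold was 5.11 and 5.94 in the quiescent libraries and 6.86 in the second proliferating library, with no peak in the first, and CTCF was called in the second proliferating library alone at a fold of 6.03. The other 2 genes, Daxx and Pias4, belonged to the list of SUMO pathway and PML body genes, where 2 of 22 had a site without STAG1. These 2 sites were already known from earlier results of these data when the list was drawn up, so their count is no independent evidence. No gene with such a site was found among 30 urothelial differentiation genes, 21 PPAR gamma targets, 22 EGF receptor and MAPK response genes, 22 AP-1 and immediate early genes or 23 genes of CDK inhibition and growth arrest. The same held for 15 cohesin genes, 18 elongation control genes, 23 Polycomb genes, 30 Mediator genes and the fibroblast and immune marker lists of 12 genes each. At the share of 0.508% over all protein-coding genes, lists of this size would mostly hold none, so nothing is read from these counts.

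Promoter windows were overlapped by 59 of the 406 sites (14.5%), giving 70 windows of 66 genes. Their median GC content was 56%, against 64% in the 9894 promoters overlapped by STAG2 sites with STAG1 in all 4 lists and 53% in all 31396 promoters. The median number of CpG dinucleotides was 16, against 24 and 7. The SP and KLF motif GGGCGG was present in 48.6% of the promoters at sites without STAG1, against 70.4% at sites with STAG1 in all 4 lists and 36.0% of all promoters. The ETS motif was in 7.14%, against 17.6% and 9.004%, and the NRF1 motif in 4.29%, against 10.6% and 4.68%. For these motifs the shares were nearer to those of all promoters than to those at sites with STAG1 in all 4 lists. The ETS and NRF1 shares stand for 5 and 3 promoters. The median CpG number went the other way, as did the YY1, E2F, E-box and CTCF core motifs given below. The E-box and YY1 shares lay above those of both other sets.

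The long CTCF pattern matched none of the 70 promoters, against 5.47% at sites with STAG1 in all 4 lists and 2.47% of all promoters, while its core CCCTC was in 72.9%, 78.7% and 66.3% of the same sets. The E-box was in 14.3% of the 70, against 10.2% and 7.14%, and the YY1 motif in 8.57%, against 8.21% and 4.07%. The AP-1 motif was in 8.57%, against 4.35% and 7.84%, and the CREB and ATF motif in 4.29%, against 5.67% and 3.25%. Of the elements linked to DREAM, the E2F pattern was in 8.57%, against 8.75% and 5.13%, and the CHR pattern in 15.7%, against 9.63% and 17.6%. ZNF143 matched none, against 3.497% and 3.32%. A share of 8.57% here stands for 6 promoters, so most of these differences rest on a handful of promoters.

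At least 1 CCAAT box was found in 37.1% of the 70 promoters, against 34.6% at sites with STAG1 in all 4 lists and 37.3% of all promoters. At least 3 CCAAT boxes were found in 6 of the 70 (8.57%), against 4.46% and 3.33%, a count made after the sequences were seen. Among these were the promoters of Tspan31 and of A730063M14Rik, which run in opposite directions away from each other and share most of the sequence shown above, of Mcm10, and of the histone genes H2bc23 and H2ac23, which also share a site. These matches describe letters in the windows and are not binding sites.

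Among miRNA genes, Mir375 and Mir1191b lay within 1000 bp of a STAG2 site without STAG1, at mean STAG2 percentiles of 31.6 and 22.4. Both lay inside the middle range of the sites without STAG1, which was 15.0 to 32.8. The share of all miRNA genes near such a site, or near any STAG2 site, is not given here, so nothing is read from them.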

How the data were processed

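ChIP-seq peak lists of 12 libraries were analysed as deposited, 1 per library. Per the submitters' processing notes, bcl2fastq, BWA, Picard, MACS2 and HOMER were used with build mm10; no versions are given in the sources used here. Each deposited list gives a summit and, as the authors' caller wrote them, a fold enrichment (ratio to background) and the p-value and q-value on a −log10 scale. Folds were ranked within a list, and are otherwise listed as descriptions with no test between libraries; the −log10 p-values were not used further.

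Peaks sharing at least 1 bp on chromosomes 1 to 19 were joined into sites with Python 3.11.15, numpy 2.4.6 and pandas 2.3.3. Shares of sites with CTCF were compared over the 4 CTCF libraries by exact two-sided sign flips or permutations, with Benjamini-Hochberg adjustment over 3 tests. Positions, folds, motifs and gene lists were described without tests. The joining and the tests were checked on simulated data with well-separated sites and STAG1 in all lists or none. That setting is simpler than the peak lists used here. Genes and promoters came from RefSeq tables for GRCm38.p6. The promoter table as used held starts on the chromosomes of 395 of the 406 sites. It held a promoter for 16457 of the 20665 protein-coding genes, so sites at the starts of other genes could be missed.

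The members, gene lists, motifs and alternatives were chosen with earlier results of these data known. Sites named were the 15 highest by mean STAG2 percentile at gene ends, the 5 highest there with CTCF in all lists and in none, the 5 highest elsewhere, every listed gene with a site, and the 3 highest with STAG1 in 1 list; 3 sites of this rule are not reported here. The replicate numbers give only 2 pairs, too few for a check of pairing.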

Additional observations from a re-analysis of the deposited data

Results flagged for a closer look

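Chromosomes X and Y were outside the rule. On X, 15 of 430 sites with STAG2 by the same rule (3.49%) had no STAG1 peak, a signal in data that the report's comparisons do not use; on Y it was 0 of 13. The share on X lay above the highest autosomal share, 1.92% on chromosome 13; the difference was not tested.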

How the results depend on the processing

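The CTCF share of STAG2 sites without STAG1 was below that of STAG2 sites with STAG1, and below that of STAG1 sites without STAG2, under each alternative run: between -89.6 and -67.2 points for the first and between -69.1 and -28.9 points for the second, or -74.1 to -58.7 and -53.1 to -34.5 with 1 library left out. The quiescent minus proliferating difference was -7.18 to -2.09 points with 1 library left out and turned to 2.27 points (22 sites; exact permutation p = 1) with the STAG2 lists alone cut to 20000 peaks. With the replicate number as a block it was -4.06 points (exact permutation, p = 0.5); 2 pairs cannot show whether the numbers pair the samples. The number of sites moved most: 630 with every list cut to 20000 peaks, 22 with the STAG2 lists alone cut so, and 290 to 1313 with 1 library left out. Chosen after seeing the data, STAG2 in all 4 STAG2 libraries gave 226 sites, and cutting the second proliferating STAG1 list to the length of the next longest gave 629. The share at gene ends was 29.96% with −log10 q of at least 5 (40.1% at sites with STAG1 in all 4 lists), 59.0% with every list at 20000 peaks (37.8%), 36.4% with the STAG2 lists alone cut so (44.1%), 33.9% around summits (35.7%), 28.1% with windows of 2000 bp (46.0%), 17.0% at start sites alone (33.7%) and 16.6% to 35.9% with 1 library left out. The causes were not tested. Read depth was unknown, a missing peak depends on the caller's threshold, and the exact tests used could not reach the usual threshold with this number of libraries.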
